A study of Mus musculus with 12 samples.

Results

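Epithelial and mesenchymal state genes were read in 12 RNA-seq libraries of mouse tumours: the 4 epithelial genes Epcam, Cdh1, Cldn4 and Krt8, the 3 mesenchymal genes Vim, Cdh2 and Fn1, and the 3 transcription factor genes Zeb1, Zeb2 and Snai1. They were chosen by symbol and make up 10 of the 45777 genes in the deposited count table. All 10 passed the filter on low counts, as did 17885 genes in all. The tumours were raised from the mouse lung cancer line 393P, placed under the skin of male 129S2/SvPasCrl mice aged 8 weeks.

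The 4 groups held 3 libraries each. Knockout control tumours came from cells labelled MAVS knockout and received the control treatment. Knockout inhibitor tumours came from the same kind of cells in mice given BAY-1217389, an inhibitor of the mitotic kinase MPS1 (gene Ttk), at 5 mg/kg, 2 doses a day for 2 days, with harvest on the next day. Reconstituted control and reconstituted inhibitor tumours came from cells labelled MAVS reconstituted under the same 2 treatments. MAVS sits on mitochondria and passes on the signal of RNA sensors such as RIG-I. Genotype is a property of the injected cell population, so the MAVS effects cannot be told apart from any other difference between the 2 populations. The labels give neither the number of clones in a population nor whether each library is a separate animal, so p-values measure the spread between these libraries. The study's stated question was which expression changes after pulsed MPS1 inhibition depend on MAVS.

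Epithelial cells are held together by E-cadherin (Cdh1), claudins and the adhesion molecule Epcam, and carry keratin filaments. In an epithelial-mesenchymal transition, cells repress these genes and express vimentin, N-cadherin (Cdh2) and fibronectin. The transition is driven by repressors of the Zeb and Snail families, which bind E-box sequences in epithelial promoters. Lung carcinoma lines range from epithelial to mesenchymal, and intermediate states that express genes of both kinds are well known.

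Depth was 52983715 to 69108411 counts a library. A floor of 3 counts equalled 0.0422 to 0.0593 CPM (counts scaled to a common library size, with TMM factors). Mavs lay between 39.4 and 45.7 CPM in knockout libraries and between 50.1 and 85.1 CPM in reconstituted ones. Reconstituted inhibitor replicate 1 stood apart, with the lowest TMM factor (0.920), the fewest detected genes (20613) and the lowest sum of 12 fibroblast markers (3208 CPM, against 7920 to 19515 CPM elsewhere). It also had the highest sums of 8 skeletal muscle markers (2542 CPM, against 1.55 to 710.2 CPM) and of macrophage and leukocyte markers (3167 CPM, against 1914 to 2637 CPM). Libraries also differed by gene length. As a measure, each gene's deviation from its mean over the 12 libraries was taken, and the median over the shortest tercile of genes was subtracted from that over the longest. This length contrast was -0.50, -0.31 and 0.11 log2 units in reconstituted inhibitor libraries and 0.30, 0.23 and 0.16 in reconstituted controls. In knockout controls it was -0.14, -0.02 and 0.05, and in knockout inhibitor libraries 0.22, -0.01 and -0.10. A fit with this trend removed, added after the data were seen, is given where it changes a result.

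A tumour piece holds host cells as well as cancer cells, and fewer cells of a type cannot be told apart from less RNA per cell. Markers of fibroblasts, which also express Vim, Fn1, Zeb1 and Zeb2, were plentiful. Markers of skin epithelium summed to 11.8 to 26.8 CPM over 10 genes, of which 7 passed the filter. Krt14 was at 1.44 to 10.2 CPM (median 7.05), Krt10 at 2.51 to 5.12 CPM, Krt6a at 1.77 to 5.73 CPM and Dsg3 at 1.06 to 5.48 CPM. Krt1 had 0 counts in every library, Krt5 up to 6 and Dsc3 up to 2. Of 12 lung lineage genes 5 passed the filter. Nkx2-1, Sftpc, Foxa2 and Sftpa1 had 0 counts in all 12 libraries, and Sftpb, Sox2 and Scgb1a1 had at most 4 in any. Napsa, an aspartic protease of alveolar cells, was at 29.6 to 50.6 CPM and the factor gene Foxa1 at 17.5 to 29.95 CPM. Hopx was at 3.56 to 9.23 CPM, Lyz1 at 2.46 to 18.5 CPM and Ager at 0.722 to 1.49 CPM. The label of lung cancer was not tested by these genes.

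Per length, the tumours held high levels of genes from both states. RPKM (CPM per kilobase of summed exon) averaged 1362 ± 144 for Vim and 1222 ± 126 for Krt8 (SD, n = 12). Next came Fn1 with 261 ± 71.7, Epcam with 72.2 ± 10.6, Cdh1 with 48.2 ± 5.12, and Cldn4, a claudin of tight junctions, with 13.04 ± 3.45 RPKM (SD, n = 12). The factor genes were lower, at 7.48 ± 1.67 for Snai1, 3.60 ± 0.581 for Zeb1 and 3.40 ± 0.528 for Zeb2, and Cdh2 was lowest at 0.870 ± 0.212 RPKM (SD, n = 12). Each gene stood above the next in this order in 12 of 12 libraries, Vim above Krt8 included, except that Zeb1 was above Zeb2 in 10 of 12. E-cadherin RNA thus stood far above N-cadherin RNA: the lowest Cdh1 value was 37.5 RPKM and the highest Cdh2 value 1.08 RPKM.

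**Figure D1:**
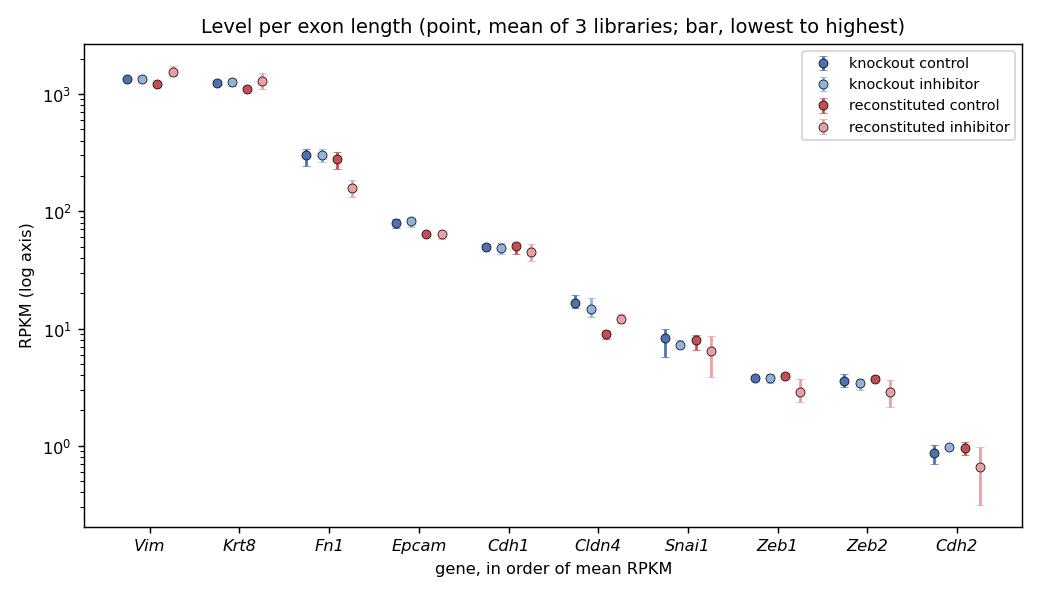
RPKM of the 10 genes on a log axis, in order of the mean over all libraries, with 4 points per gene for the 4 groups (mean of 3 libraries) and bars from the lowest to the highest library. Vim (1362) and Krt8 (1222) lead and Cdh2 (0.870) is lowest, and the order from Fn1 down to Snai1 is the same in the means of all 4 groups.

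Epcam encodes an epithelial adhesion molecule and lies on chromosome 17 (87635979 to 87651127, GRCm38.p6, plus strand). Knockout control libraries held 158, 174 and 189 CPM, knockout inhibitor libraries 160, 192 and 193 CPM, reconstituted controls 136, 147 and 136 CPM, and reconstituted inhibitor libraries 147, 142 and 128 CPM. All 6 reconstituted libraries lay below all 6 knockout libraries. Averaged over treatments, Epcam fell by 0.35 on the log2 scale in reconstituted tumours, to 0.784 of the knockout level (SE 0.07, edgeR adjusted p = 0.0310).

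Cldn4 lies on chromosome 5 (134945123 to 134946934, minus strand). Knockout controls held 34.9, 27.0 and 27.9 CPM, knockout inhibitor libraries 22.8, 23.5 and 33.3 CPM, reconstituted controls 14.8, 16.9 and 17.1 CPM, and reconstituted inhibitor libraries 21.1, 24.3 and 20.4 CPM. Reconstituted controls were the lowest group without overlap, while 1 reconstituted inhibitor library reached the range of the knockout inhibitor group. Lower without overlap in reconstituted than in knockout controls were 15.5% of all genes, and the share lowest of all 4 groups was not counted. Averaged over treatments Cldn4 fell by 0.57 on the log2 scale, to 0.671 of the knockout level (SE 0.11, edgeR adjusted p = 0.0285).

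These were the 2 members of 10 called for the MAVS effect averaged over treatments, against 1.56% of all genes (0.47% called lower). The background for 6 libraries lying wholly below the other 6, as for Epcam, was 0.783% of genes. Neither value moved with the length trend removed (-0.35 for Epcam and -0.56 for Cldn4), and Fn1 was then called as a further gene (-0.52, adjusted p = 0.0149, against 0.0686 with the trend). DESeq2, which called 963 of 16312 genes, called Epcam, Cldn4 and also Fn1 (-0.52, adjusted p = 0.00252). Without reconstituted inhibitor replicate 3, edgeR called Fn1 (-0.58, adjusted p = 0.0491). The 2 calls depended on single libraries. Epcam's adjusted p rose to 0.0541 to 0.0943 without knockout control 2 or 3, knockout inhibitor 2 or 3, or any reconstituted control, and Cldn4's to at most 0.0641, no longer below 0.05, without knockout control 1, any reconstituted control, or reconstituted inhibitor 1 or 3 (edgeR). Summed fibroblast markers ran from 8445 to 19515 CPM in knockout and from 3208 to 10047 CPM in reconstituted libraries, and their part in these differences was not tested.

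**Figure D2:**
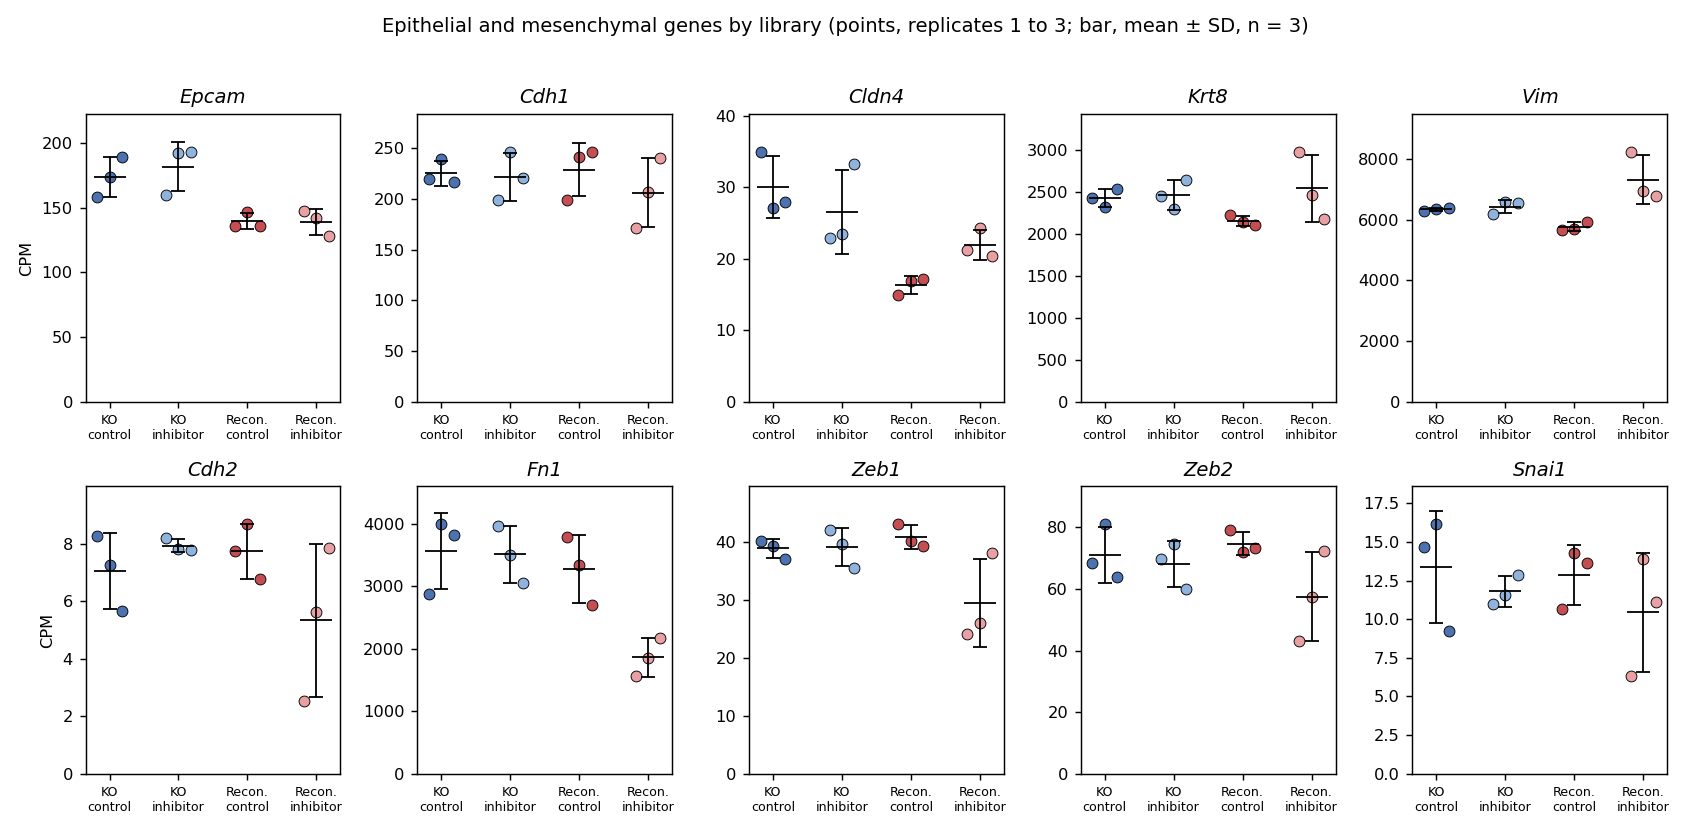
CPM of the 10 genes in the 12 libraries (points, replicates 1 to 3 from left to right), with the mean and SD of each group of 3 as bars and axes that start at 0. Epcam is lower in all 6 reconstituted libraries, and Fn1 is lower in the 3 reconstituted inhibitor libraries (1555 to 2172 CPM) than in the other 9.

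Because Epcam and Cldn4 were the 2 genes called together, the 250 bases before their starts are shown, from RefSeq on GRCm38.p6. The capitals mark the E-box CACCTG or its other strand CAGGTG, the sequence that Zeb and Snail factors are known to bind.
Epcam, chr17:87635729-87635978, plus strand: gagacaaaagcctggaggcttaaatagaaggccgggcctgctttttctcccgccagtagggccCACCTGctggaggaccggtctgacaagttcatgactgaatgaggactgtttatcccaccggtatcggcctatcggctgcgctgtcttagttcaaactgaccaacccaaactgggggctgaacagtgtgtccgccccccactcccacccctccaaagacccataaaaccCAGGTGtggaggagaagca
Cldn4, chr5:134946935-134947184, minus strand: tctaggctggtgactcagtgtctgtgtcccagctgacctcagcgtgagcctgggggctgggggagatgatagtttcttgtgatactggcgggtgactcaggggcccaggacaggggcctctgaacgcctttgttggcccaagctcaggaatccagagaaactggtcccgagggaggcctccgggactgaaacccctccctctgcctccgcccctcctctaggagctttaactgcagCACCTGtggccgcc
In Epcam the matches begin at -187 and -19 from the start. In Cldn4 they begin at -14 and, inside the transcript, at +12.

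Start windows of 250 bases before to 50 after were at hand for 6 of the 10 members. Besides Epcam and Cldn4 with 2 matches each, Krt8 and Snai1 held 1 each, and Vim and Zeb2 (4 windows) held none. The stretches around these single matches and the match of Cldn4 after its start are:
Krt8, chr15:102004440-102004461, minus strand: gctgccctCACCTGagtcccgt
Snai1, chr2:167538061-167538082, plus strand: cccaggcgCACCTGctccggtc
Cldn4, chr5:134946910-134946931, minus strand: tcttgttgCAGGTGcaggcagg
Over 32851 such windows of all genes in the table, 20.2% held the motif on either strand and 2.88% held it 2 or more times. A match describes the letters in these windows and is not a measured binding site.

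Cdh1, on chromosome 8 (106603350 to 106670247, plus strand), did not follow Epcam and Cldn4. It held 220, 240 and 217 CPM in knockout controls and 199, 246 and 221 CPM in knockout inhibitor libraries. Reconstituted controls held 199, 241 and 247 CPM and reconstituted inhibitor libraries 172, 207 and 240 CPM. The 4 groups overlapped, and the averaged MAVS difference was -0.04 (95% interval -0.24 to 0.16, edgeR adjusted p = 0.889).

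Krt8, on chromosome 15 (101996711 to 102004342, minus strand), encodes a keratin of simple epithelia. It held 2424, 2318 and 2529 CPM in knockout controls, 2449, 2287 and 2639 CPM in knockout inhibitor libraries, 2218, 2143 and 2103 CPM in reconstituted controls and 2974, 2460 and 2179 CPM in reconstituted inhibitor libraries. Reconstituted inhibitor replicate 1 had the highest value and also the most negative length contrast. Krt8 is short, at percentile 11.4 of exon length, and with the length trend removed its inhibitor difference in reconstituted tumours turned from 0.24 to -0.05.

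Among control tumours alone, edgeR called 0 of the 10 genes for MAVS, against 0.14% of all genes, while 2 had an unadjusted p below 0.05. The share of all genes at that threshold was not counted, though Ttk, at 0.0766 (edgeR, unadjusted), ranked 4371 of 17885 by p. DESeq2 called 1 member (Cldn4) among 719 of 14715 genes. Cldn4 differed by -0.88 ± 0.16 (SE, edgeR adjusted p = 0.0644), a level 1.84-fold lower in reconstituted tumours. The call was made without knockout inhibitor replicate 3 (adjusted p = 0.0388). Epcam differed by -0.32 ± 0.10 (SE, edgeR adjusted p = 0.179). Epcam, Cldn4, Krt8 and Vim lay lower in all 3 reconstituted controls than in all 3 knockout controls, which 15.5% of all genes did. Krt8 (-0.17) and Vim (-0.14) differed by little, and the other 6 genes overlapped.

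Fn1 encodes fibronectin, a matrix protein laid down by mesenchymal cells and fibroblasts, and lies on chromosome 1 (71585473 to 71653280, minus strand). Knockout controls held 2867, 3995 and 3813 CPM, knockout inhibitor libraries 3965, 3502 and 3049 CPM and reconstituted controls 3777, 3334 and 2698 CPM. Reconstituted inhibitor libraries held 1555, 1849 and 2172 CPM and lay below each of the other 9. The share of all genes for which they did so was not counted. Under MPS1 inhibition Fn1 fell by 0.92 on the log2 scale in reconstituted against knockout tumours, a level 1.89-fold lower (SE 0.18, edgeR adjusted p = 0.0462).

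Fn1 was the 1 member called for the MAVS effect under MPS1 inhibition, against 0.649% of all genes (0.129% called lower). Fn1 and Epcam (-0.39 ± 0.10, SE, edgeR adjusted p = 0.0906) were lower without overlap, as were 9.77% of all genes, and Vim (0.19 ± 0.09, SE, edgeR adjusted p = 0.282) was higher without overlap, as were 10.9%. Of the 10 members 3 had an unadjusted p below 0.05. The share of all genes at that threshold was not counted, though Vim, at 0.0669 (edgeR, unadjusted), ranked 4241 of 17885 by p. DESeq2 called 2 members (Epcam and Fn1) among 1175 of 15780 genes. The Fn1 value was -0.74 with the length trend removed (edgeR adjusted p = 0.0238), and Epcam was then called too (-0.51, adjusted p = 0.0234). The call held without knockout control 1, reconstituted control 3 or reconstituted inhibitor 3. It was lost (edgeR adjusted p from 0.0598 to 0.216) without knockout control 2 or 3, any knockout inhibitor library, reconstituted control 1 or 2, or reconstituted inhibitor 1 or 2. It was also lost when only the 6 libraries compared were fitted (adjusted p = 0.0969).

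All 12 fibroblast markers had negative log2 differences under inhibition, with a median of -0.74, and 48.9% of all genes were negative. Their summed level was 8445 to 16270 CPM in knockout inhibitor and 3208 to 9679 CPM in reconstituted inhibitor libraries, and 0 of the 12 were called (3 at an unadjusted p below 0.05, edgeR). Over the 12 libraries the log2 level of Fn1 and that of the marker sum had Pearson r = 0.64 and Spearman rho = 0.31 (permutation adjusted p = 0.175 and 0.641 over 60 relations). Without the 2 libraries farthest from the median of the marker sum, r was 0.11. Within the 6 knockout libraries r was -0.15 and within the 6 reconstituted ones 0.68. The part of fibroblasts in the Fn1 difference was not tested beyond these values.

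Vim encodes the intermediate filament vimentin and lies on chromosome 2 (13574311 to 13582826, plus strand). Knockout controls held 6285, 6350 and 6372 CPM, knockout inhibitor libraries 6188, 6564 and 6531 CPM, reconstituted controls 5652, 5704 and 5929 CPM and reconstituted inhibitor libraries 8234, 6934 and 6767 CPM. The reconstituted inhibitor libraries were the highest group and the reconstituted controls the lowest, each without overlap with the other 3 groups. The share of all genes with such a pattern was not counted. Between the 2 reconstituted groups alone, 14.7% of all genes were higher without overlap in treated libraries. The inhibitor difference in reconstituted tumours was 0.34 ± 0.09 (SE, edgeR adjusted p = 0.0729). The direction was opposite to that of Fn1, and the value was 0.38 with the length trend removed (edgeR adjusted p = 0.0954).

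Zeb1, on chromosome 18, encodes a repressor of epithelial genes. It held 40.2, 39.3 and 37.0 CPM in knockout controls, 42.0, 39.6 and 35.5 CPM in knockout inhibitor libraries, 43.0, 40.1 and 39.2 CPM in reconstituted controls and 24.1, 25.9 and 38.0 CPM in reconstituted inhibitor libraries. Reconstituted inhibitor replicates 1 and 2 were well below the other 10 libraries, and replicate 3 was within their range. The inhibitor difference in reconstituted tumours was -0.47 ± 0.15 (SE, edgeR adjusted p = 0.0759), and -0.24 with the length trend removed.

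Zeb2, a relative of Zeb1 on chromosome 2 (44983512 to 45117442, minus strand), held 68.3, 81.1 and 63.7 CPM in knockout controls and 69.7, 74.6 and 59.9 CPM in knockout inhibitor libraries. Reconstituted controls held 79.0, 71.9 and 73.2 CPM and reconstituted inhibitor libraries 43.1, 57.2 and 72.2 CPM. Again reconstituted inhibitor 1 and 2 were lowest and replicate 3 was not. The inhibitor difference in reconstituted tumours was -0.38 ± 0.16 (SE, edgeR adjusted p = 0.139), and turned to 0.02 with the length trend removed. Zeb2 has the longest exon sum of the members, at percentile 99.2 of 12002 genes, and Zeb1 is at percentile 90.6.

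Cdh2, on chromosome 18, held 8.27, 7.27 and 5.65 CPM in knockout controls, 8.19, 7.81 and 7.79 CPM in knockout inhibitor libraries, 7.76, 8.69 and 6.76 CPM in reconstituted controls and 2.53, 5.62 and 7.85 CPM in reconstituted inhibitor libraries. Only reconstituted inhibitor 1 and 2 lay below the lowest of the other 10. The inhibitor difference in reconstituted tumours was -0.54 ± 0.31 (SE, edgeR adjusted p = 0.252).

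Snai1, on chromosome 2 (167538195 to 167542814, plus strand), encodes the Snail repressor. It held 14.6, 16.2 and 9.27 CPM in knockout controls, 10.96, 11.6 and 12.9 CPM in knockout inhibitor libraries, 10.7, 14.3 and 13.7 CPM in reconstituted controls and 6.30, 13.9 and 11.1 CPM in reconstituted inhibitor libraries. All groups overlapped, and none of its tests passed (largest difference -0.30 ± 0.27, SE, for the inhibitor in reconstituted tumours, edgeR adjusted p = 0.457).

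In reconstituted tumours as a whole, edgeR called 0 of the 10 genes for the inhibitor, as it called 0% of all genes. Of the 10 genes, 5 had an unadjusted p below 0.05. Many other genes did too, since that of Zeb2 (0.0415, edgeR) ranked 5350 of 17885. DESeq2 called 4 members (Cldn4, Vim, Fn1 and Zeb1) among 3490 of 14715 genes. Vim and Cldn4 were higher and Fn1 and Zeb1 lower in all 3 treated than in all 3 control libraries, patterns that 14.7% and 14.8% of all genes showed. Fn1 differed by -0.81 ± 0.18 (SE, edgeR adjusted p = 0.0729), Cldn4 by 0.43 ± 0.16 (SE, adjusted p = 0.0944), and Cldn4 by 0.14 with the length trend removed. Epcam differed by -0.0039 (95% interval -0.22 to 0.21) and Cdh1 by -0.15 (-0.44 to 0.13). Replicate 3 of the treated group decided the count. Without it 6 members were called by edgeR: Krt8 (0.33), Vim (0.39), Cdh2 (-0.92), Fn1 (-0.94), Zeb1 (-0.71) and Zeb2 (-0.57). The number of all genes called went from 0 of 17885 to 5683 of 18321. The treated libraries left had length contrasts of -0.50 and -0.31, against 0.30, 0.23 and 0.16 in the controls. Treatment and contrast cannot be told apart in that refit. Skeletal muscle markers were positive in 8 of 8 genes for this comparison (median 1.97) and fibroblast markers negative in 12 of 12 (median -0.40), 0 of either called by edgeR, and their part was not tested. Without reconstituted inhibitor replicate 1, 8 of the 12 fibroblast markers were negative.

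In knockout tumours the inhibitor left no called difference. edgeR called 0 of 10 members, as it called 0% of all genes, with 0 at an unadjusted p below 0.05, and DESeq2 called 0. No member was free of overlap between the groups, against 8.73% of all genes. Differences ran from -0.18 for Snai1 to 0.17 for Cdh2. The 95% intervals were -0.15 to 0.28 for Epcam, -0.52 to 0.17 for Cldn4, -0.18 to 0.22 for Vim and -0.41 to 0.36 for Fn1.

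**Figure D3:**
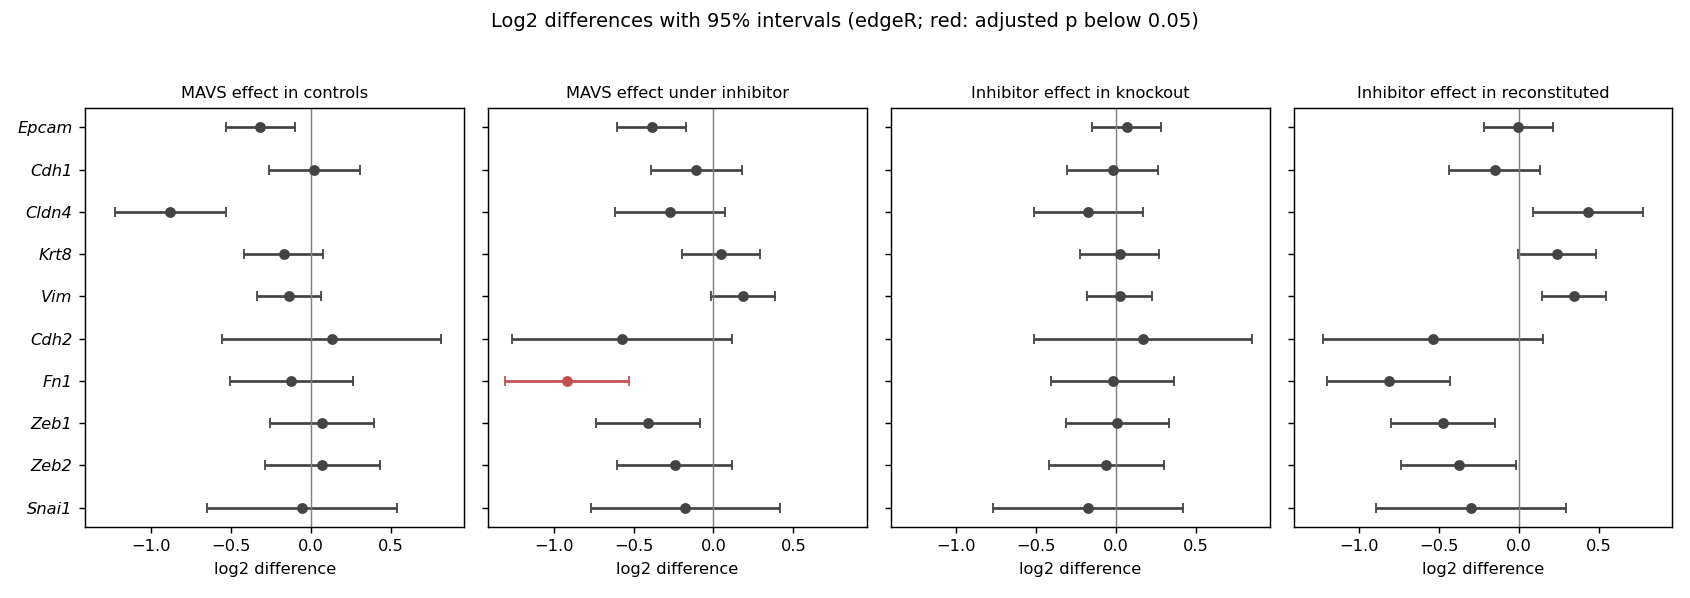
Log2 differences of the 10 genes (points) with 95% intervals (bars) in 4 comparisons, with the called difference in red (edgeR adjusted p below 0.05). Fn1 under the inhibitor (-0.92) is the 1 red point, and in knockout tumours all intervals for the inhibitor cross 0.

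The interaction, the inhibitor difference in reconstituted minus that in knockout tumours, was tested for each gene. edgeR called 0 of 10 members and 0% of all genes, with 4 members at an unadjusted p below 0.05. Zeb1, at an unadjusted p of 0.0409 (edgeR), ranked 3936 of 17885 genes by p. DESeq2 called 1 member (Fn1) among 1238 of 13653 genes. The estimates were -0.79 ± 0.25 for Fn1 (SE, edgeR adjusted p = 0.144), 0.60 ± 0.22 for Cldn4 (0.152), 0.32 ± 0.13 for Vim (0.169) and -0.48 ± 0.21 for Zeb1 (0.186). A different inhibitor response between genotypes was therefore not established for any member. Without reconstituted inhibitor replicate 3, edgeR called Vim (0.37), Fn1 (-0.92) and Zeb1 (-0.72), among 4005 of 18321 genes called in that refit. For the inhibitor averaged over genotypes edgeR called 0 members and 0% of all genes, and DESeq2 called 0 members. By edgeR 3 members (Vim, Fn1 and Zeb1) had an unadjusted p below 0.05, all at an adjusted p of 0.522. Zeb1, at 0.0460 (edgeR, unadjusted), ranked 1240 of 17885 by p there.

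The members' levels followed the length contrast of the libraries to different degrees. Over the 12 libraries Zeb1 had Pearson r = 0.88 and Spearman rho = 0.69 with the contrast (permutation adjusted p = 0.00125 and 0.0506 over 10 genes). Vim had r = -0.88 and rho = -0.78 (0.00125 and 0.0407), Zeb2 r = 0.82 and rho = 0.61 (0.00610 and 0.0794), and Krt8 r = -0.77 and rho = -0.69 (0.00802 and 0.0506, permutation adjusted). Without the 2 libraries farthest from the median contrast, r was 0.60 for Zeb1, -0.68 for Vim, 0.40 for Zeb2 and -0.57 for Krt8. Zeb1 and Zeb2 are long, and Vim is at percentile 52.7 of summed exon length. That sum takes in the exons of all annotated transcripts, so it can exceed the length of a gene's main transcript. Fn1 and Cdh2 passed by r (0.73 and 0.75, permutation adjusted p = 0.0141 for each), with 0.16 and 0.09 without the 2 farthest libraries. Epcam had r = -0.14 and rho = -0.34 (permutation adjusted p = 0.662 and 0.349).

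Within the 6 knockout libraries r with the contrast was 0.48 for Zeb1, -0.50 for Vim, 0.13 for Zeb2 and -0.06 for Krt8. Within the 6 reconstituted libraries these were 0.995, -0.93, 0.97 and -0.92. The contrast separated the reconstituted groups in part, since 2 of 3 treated libraries had the 2 lowest values, so group and contrast cannot be told apart there.

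**Figure D4:**
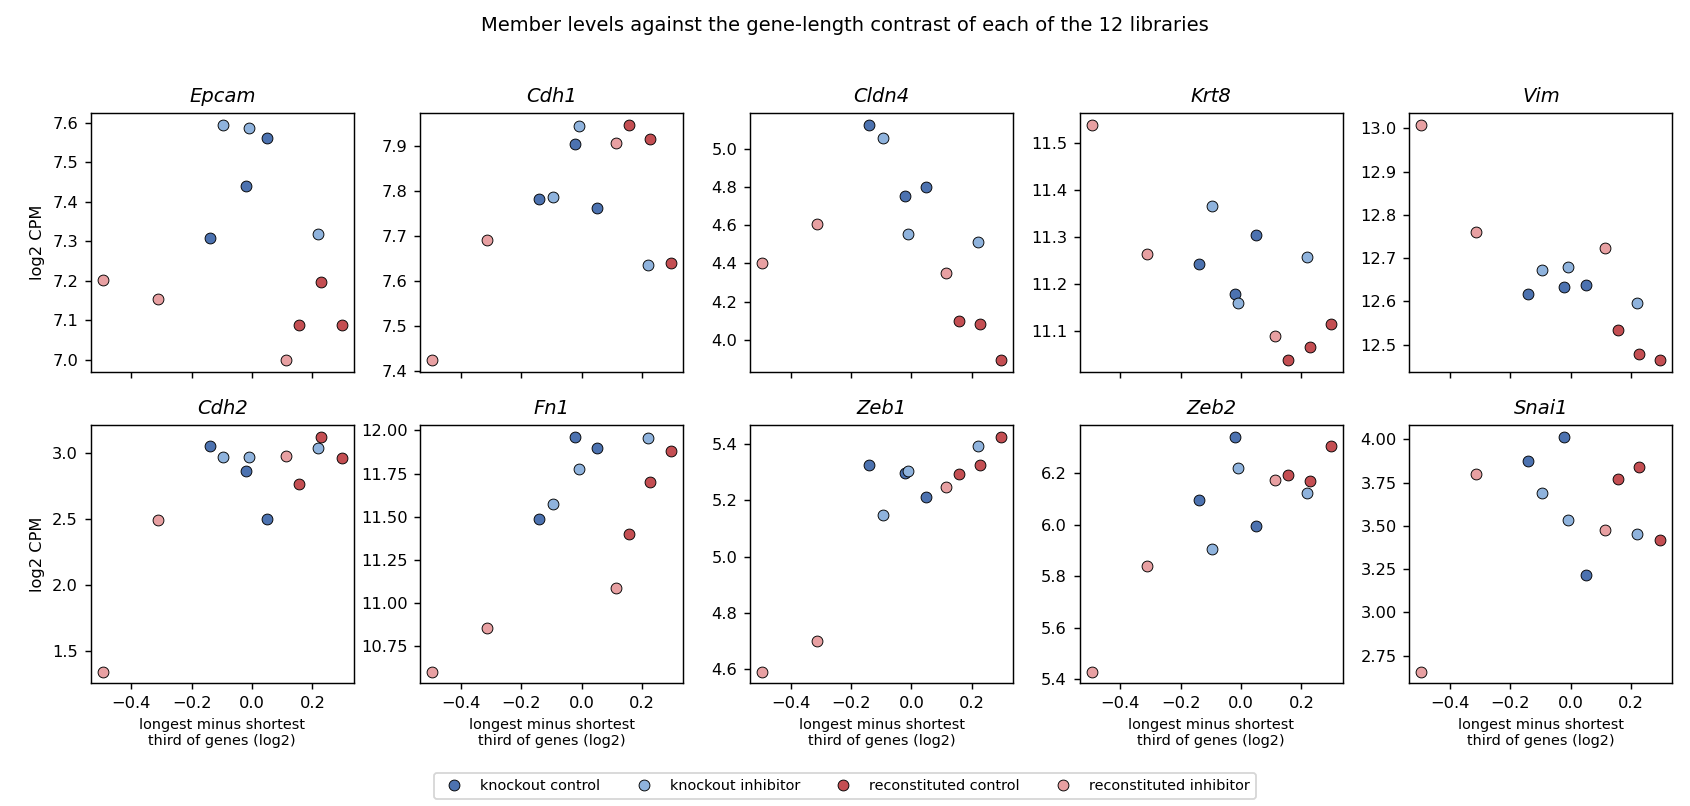
Log2 CPM of each gene against the length contrast of the library (log2 units, longest minus shortest tercile of genes), with 1 point per library coloured by group. Zeb1 and Zeb2 climb and Vim and Krt8 descend along the axis, with reconstituted inhibitor replicates 1 (-0.50) and 2 (-0.31) at its left end, while all reconstituted Epcam points lie below the knockout ones.

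Pairs of members were compared over the 12 libraries. Of 45 pairs, 18 passed by Pearson r (permutation adjusted p below 0.05) and 0 by Spearman rho (smallest adjusted p = 0.108). Zeb1 and Zeb2 had r = 0.89 and rho = 0.64 (permutation adjusted p = 0.00495 and 0.208), and r = 0.68 without the 2 farthest libraries. Krt8 and Zeb2 had r = -0.86 and rho = -0.76 (0.0105 and 0.145, permutation adjusted) and r = -0.72 without the 2 farthest. Vim and Zeb1 had r = -0.85 and rho = -0.80 (0.00495 and 0.108, permutation adjusted) and r = -0.63 without the 2 farthest. The vimentin gene thus had a negative r with a factor gene of its own state. Vim and Zeb1 did not pass with the length trend removed (r = -0.70, permutation adjusted p = 0.0866) or with group means removed (r = -0.71, 0.0526). The pair of N-cadherin and Zeb1 (Cdh2 and Zeb1) had r = 0.85 and rho = 0.69 (0.0162 and 0.146, permutation adjusted) and r = 0.41 without the 2 farthest libraries.

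Epithelial genes did not vary as a block. Epcam and Cldn4 had r = 0.68 and rho = 0.71 (permutation adjusted p = 0.0414 and 0.146), with r = -0.03 within the 6 knockout and 0.16 within the 6 reconstituted libraries, so that relation did not hold within a genotype. Cdh1 and Krt8 had r = -0.76 and rho = -0.70 (permutation adjusted p = 0.0240 and 0.146) and r = -0.44 without the 2 farthest. With the length trend removed, 1 of 45 pairs passed, Epcam and Fn1 with r = 0.89 (permutation adjusted p = 0.00360), against r = 0.49 and rho = 0.46 with the trend (0.182 and 0.336). Before removal that pair had r = 0.0055 within the knockout and -0.19 within the reconstituted libraries.

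**Figure D5:**
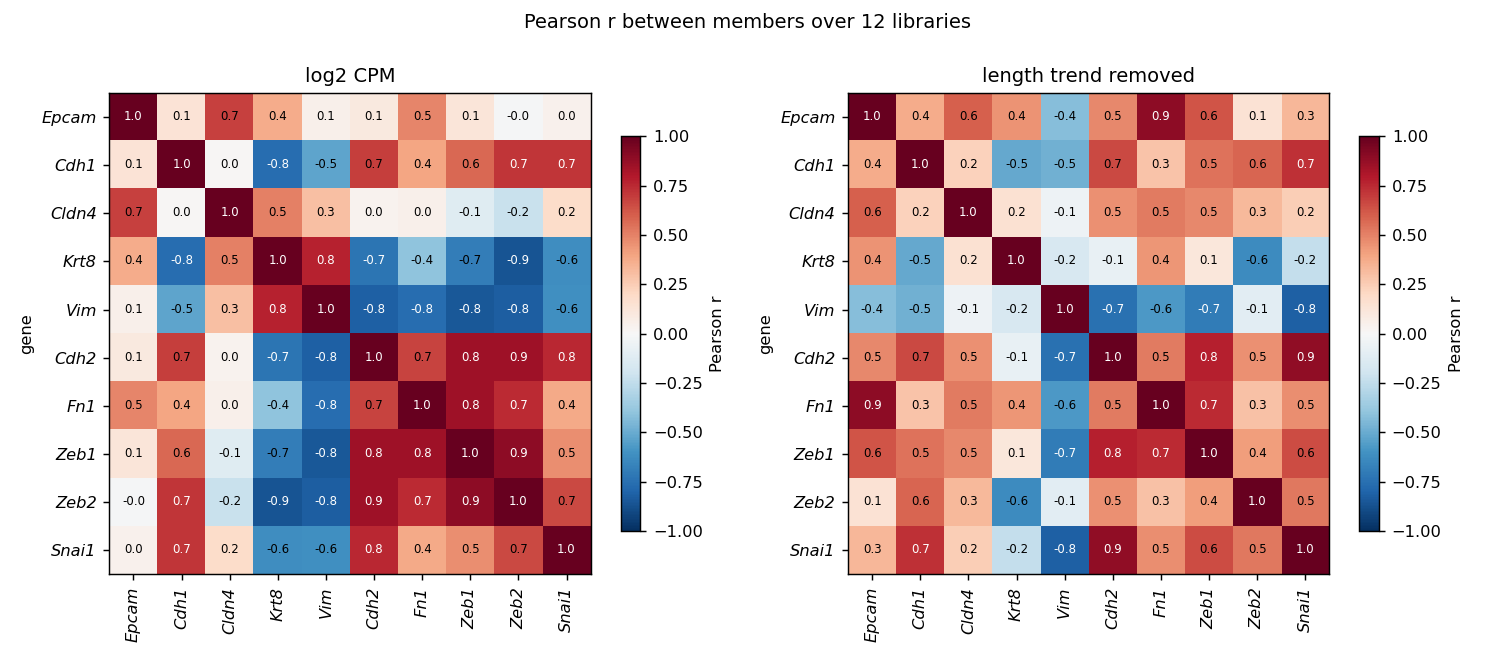
Pearson r between the 10 genes over 12 libraries from log2 CPM (left) and with the length trend removed (right), on a colour scale from -1 (blue) to 1 (red). The block that joins Cdh2, Fn1, Zeb1 and Zeb2 on the left, with Zeb1 and Zeb2 at 0.89, is paler on the right, where that pair is at 0.41.

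Other epithelial genes were given by a list of 44, of which 35 passed the filter. Keratin partners were high, with Krt18, the partner of keratin 8, at 1626 to 3257 CPM, Krt7 at 1545 to 2519 CPM and Krt19 at 526 to 1042 CPM. Cldn7 had 0 counts in all libraries, and the epithelial splicing regulator Esrp1 (up to 10 counts), its relative Esrp2 (up to 0.319 CPM) and Grhl2 (up to 0.270 CPM) were near the floor. The tumours thus held keratins, Cdh1 and Epcam with little RNA of Esrp1, Esrp2 or Grhl2, which maintain the epithelial state in many tissues. Of the 35 tested, 18 had positive and 17 negative MAVS differences averaged over treatments (median 0.02) and 0 were called by edgeR, with 7 at an unadjusted p below 0.05. The smallest p were those of the factor gene Grhl1 (0.77 ± 0.19, SE, edgeR adjusted p = 0.0736), the mucin gene Muc1 (0.84 ± 0.21, 0.0797) and Elf3 (0.72 ± 0.20, 0.103), all of them positive while Epcam and Cldn4 fell. With the length trend removed edgeR called Muc1 (0.83, adjusted p = 0.0418) and Elf3 (0.71, adjusted p = 0.0456). For MAVS averaged over treatments the share of all genes at an unadjusted p below 0.05 was not counted. Zeb1, at 0.130 (edgeR, unadjusted), ranked 4683 of 17885 by p.

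For the inhibitor in reconstituted tumours, 19 of the 35 epithelial genes were positive (median 0.12), 0 were called by edgeR and 14 had an unadjusted p below 0.05. Many genes passed that threshold there, since the unadjusted p of Zeb2 (0.0415, edgeR) ranked 5350 of 17885. The smallest p belonged to Cldn3 (0.58 ± 0.15, SE, edgeR adjusted p = 0.0729), the protease inhibitor gene Spint2 (0.75 ± 0.19, 0.0729), Krt18 (0.52 ± 0.15, 0.0729) and the junction scaffold gene Tjp1 (-0.72 ± 0.21, 0.0732). Cldn3 and Krt18 thus pointed the same way as Cldn4, and Tjp1 the other. With the length trend removed the list's median was -0.03.

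A list of 35 other mesenchymal genes, all of which passed the filter, was mostly lower in reconstituted tumours. Averaged over treatments 28 had negative MAVS differences (median -0.23), against 49.9% of all genes, but 0 were called by edgeR and 13 had an unadjusted p below 0.05. The smallest p were those of Gng11, a G protein subunit gene (-0.59 ± 0.14, SE, edgeR adjusted p = 0.0685), the osteopontin gene Spp1 (-0.31 ± 0.10, 0.144), the hyaluronan receptor gene Cd44 (-0.18 ± 0.06, 0.160) and the proteoglycan gene Vcan (-0.79 ± 0.26, 0.166). Gng11 was called with the length trend removed (-0.57, edgeR adjusted p = 0.0271). Under inhibition 29 of 35 were negative (median -0.34), and 32 with the length trend removed. The fibroblast markers were negative in 12 of 12 genes in both comparisons (medians -0.67 averaged, with 7 at an unadjusted p below 0.05, and -0.74 under inhibition, with 3), 0 of them called by edgeR, and their part was not tested. The share of all genes at an unadjusted p below 0.05 was not counted for either comparison.

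Genes whose products bind fibronectin or lie beside it in the matrix were given by a list of 15, of which 12 were negative for MAVS under inhibition (median -0.43) and 0 called by edgeR, with 5 at an unadjusted p below 0.05, while 48.9% of all genes were negative. The share of all genes at that unadjusted threshold was not counted. The list shares Col1a1, Col1a2 and Col3a1 with the fibroblast markers, which were negative in 12 of 12 genes there, and their part was not tested. The integrin genes Itgb1 (-0.29 ± 0.08, SE, edgeR adjusted p = 0.0949) and Itgav (-0.43 ± 0.11, 0.0957), which encode parts of fibronectin receptors, were negative like Fn1, and Itgav was called with the length trend removed (-0.27, edgeR adjusted p = 0.0388). The syndecan gene Sdc4, a co-receptor, was positive (0.49 ± 0.15, edgeR adjusted p = 0.132). The signs of these 3 genes were the same for the inhibitor in reconstituted tumours (-0.23, -0.43 and 0.68), a comparison that shares the treated libraries.

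Among 24 genes of TGF-beta and related inducing signals, edgeR called 1 for MAVS averaged over treatments, against 1.56% of all genes (0.47% called lower). Of the 24, 15 were negative, against 49.9% of all genes. Jag1, which encodes a Notch ligand, fell by 0.50 on the log2 scale (SE 0.11, edgeR adjusted p = 0.0453), while the receptor gene Notch1 had 0.39 ± 0.10 (SE, edgeR adjusted p = 0.0865), a gene called with the length trend removed (0.40, edgeR adjusted p = 0.0282). Under inhibition 19 of the 24 were negative (median -0.15), against 48.9% of all genes, and 15 with the length trend removed (median -0.077). The smallest p were those of Jag1 (-0.70 ± 0.15, SE, edgeR adjusted p = 0.0684) and Wwtr1 (-0.49 ± 0.11, 0.0693), which encodes the coactivator TAZ. The TGF-beta ligand gene Tgfb2 (-0.77 ± 0.23, 0.126) was negative there, and Id1 (0.74 ± 0.22, edgeR adjusted p = 0.126), a target of BMP signals, was positive.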

How the data were processed

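Counts per gene were deposited by the authors as whole numbers, not normalized as far as the values show. Trimmomatic, HISAT2, StringTie, GRCm38 and mm10 are named in the submitters' processing notes, with no versions. The way reads were counted, strand included, is not stated there. Per the labels' protocols, libraries were made with a stranded mRNA kit. Groups came from the labels. All 12 libraries entered 1 model in edgeR 4.0.16 (R 4.3.3; filterByExpr, TMM, quasi-likelihood F-test, a mean per group, no covariate). Benjamini-Hochberg adjustment ran over 17885 genes in each of 7 comparisons, with calls at adjusted p values under 0.05. Errors are SEs of the fit, and 95% intervals come from them. The fit and the removal of the length trend were checked on simulated counts. Exon lengths came from GENCODE M21, summed over the exons of all transcripts of a gene with overlaps counted once (82.5% of tested genes matched). Correlations used log2 CPM (prior count 0.5) with 100000 permutations in SciPy. Alternatives were RLE factors, DESeq2 1.42.0, no filter, fewer libraries, a replicate block, each library left out, and removal of the length trend, which was chosen after seeing the data. The genes named are the 10 members and, of each list, up to 4 with the smallest p in a comparison, with the 5 genes most correlated with each member. Krt7, Krt19, Cldn7, Esrp1, Esrp2, Grhl2 and the marker genes named for their level were picked after their values were seen. The members and lists were chosen with earlier results of these data known. Antisense or overlapping transcripts cannot be separated in these counts.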

Additional observations from a re-analysis of the deposited data

How the results depend on the processing

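Of 934 alternative values for 53 log2 differences of members, 857 kept direction and side of the threshold, among them all with RLE factors and all without the filter. DESeq2 called 1 member for MAVS in controls, 2 for MAVS under inhibition, 4 for the inhibitor in reconstituted tumours, 1 for the interaction and 3 for MAVS averaged over treatments. Of all genes it called 719, 1175, 3490, 1238 and 963 in the same order, out of 13653 to 16312 genes. For MAVS under inhibition 0 were called with only the libraries compared, and 2 with the length trend removed. Replicate numbers are shared between groups, but no label says that they pair libraries. Same-numbered libraries of different groups had deviations correlated by -0.09 to 0.26 (median 0.07, 6 of 18 pairs above 0.1), so they were not taken as pairs. With the replicate block 0 members were called for MAVS under inhibition and 0 for MAVS averaged over treatments, and no other count of members changed. With the length trend removed, differences turned for MAVS in controls (Zeb1 -0.079, Zeb2 -0.17, Snai1 0.16), MAVS under inhibition (Krt8 -0.12), the inhibitor in reconstituted tumours (Krt8 -0.048, Zeb2 0.021) and the interaction (Krt8 -0.12, Zeb2 0.15). The number of related pairs of members fell from 18 to 1. Epcam and Fn1 had r = -0.19 with group means removed, and 5 relations with marker sums then passed, against 0, by permutations that ignored the groups. In each case the cause was not tested.

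Leaving out 1 library gave 0 to 1 members called for MAVS in controls, 0 to 2 under inhibition, 0 to 3 averaged over treatments, 0 to 6 for the inhibitor in reconstituted tumours and 0 to 3 for the interaction, the highest counts of the last 4 being those without reconstituted inhibitor replicate 3. That refit called 2816, 327, 5683 and 4005 of 18321 genes in these 4 comparisons. Some differences changed sign with the library left out, over these ranges. MAVS averaged gave Cdh1 -0.11 to 0.016, Snai1 -0.24 to 0.015 and Vim -0.023 to 0.048. MAVS in controls gave Cdh1 -0.030 to 0.11, Cdh2 -0.0022 to 0.26, Fn1 -0.26 to 0.0010 and Snai1 -0.26 to 0.11. MAVS under inhibition gave Cdh1 -0.23 to 0.0089, Krt8 -0.084 to 0.14 and Snai1 -0.44 to 0.084. The inhibitor in reconstituted tumours gave Epcam -0.047 to 0.052 and the interaction gave Snai1 -0.38 to 0.14. Counts of negative genes in 4 lists stayed within 1.5 times in 212 of 212 refits, a bound too wide to show that they were stable. For the inhibitor in reconstituted tumours, fibroblast markers went from 12 to 8 negative genes without reconstituted inhibitor replicate 1. Mesenchymal genes went from 26 to 23 there. Cdh2 and Snai1 had the lowest counts of the members, with 128 and 319 in their lowest library. Their SD over the reconstituted inhibitor libraries was 50.1% and 36.8% of the mean.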

Other observations

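For each member, the 5 genes with the highest Pearson r of log2 CPM over the 12 libraries were taken among 11738 genes, as a description. Those of Epcam were led by the haemoglobin genes Hbb-bt (0.89) and Hbb-bs (0.88), with Hba-a1 at 0.85, which are red cell transcripts. Krt8 was most like Hsd17b10 (0.97) and its fellow keratin Krt7 (0.96). Fn1 was most like Kif2a (0.98) and the integrin gene Itgb1 (0.96), a receptor subunit for fibronectin. Cdh1 was most like Hacd4 (0.93) and the tight junction gene Cldn1 (0.93). Zeb1 was most like Cep170 (0.99) and Akap11 (0.99), and Zeb2 like Glis3 (0.98) and Nav1 (0.96). Cdh2 was most like Wipi1 (0.98), and the matrix genes Angptl2 (0.97) and Col6a3 (0.96) were among its 5. Cldn4 was most like Shb (0.95), Vim like Ankrd54 (0.97) and Snai1 like Slc39a8 (0.95).

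Of 60 relations between members and sums of 6 marker lists, 0 passed by Pearson r (smallest permutation adjusted p = 0.112) or by Spearman rho (smallest 0.173). The highest were those of Snai1 with fibroblast markers (r = 0.84, rho = 0.71, r = 0.38 without the 2 farthest libraries) and of Vim with macrophage and leukocyte markers (r = 0.80, rho = 0.62, r = 0.58 without the 2 farthest), each with a permutation adjusted p of 0.112 for r. Within the 6 knockout libraries these were 0.79 and 0.32, and within the 6 reconstituted libraries 0.94 and 0.93. With group means removed 5 of the 60 relations passed by r. Among them were these 2, with r = 0.87 and 0.88 (permutation adjusted p = 0.00615 and 0.00360). These permutations shuffled values over all 12 libraries and not within groups, so the p-values can be too small. Reconstituted inhibitor replicate 1 had the lowest Snai1 and fibroblast values and the highest Vim and macrophage and leukocyte values. No r without that library was taken with group means removed.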
